A study of Mus musculus with 10 samples.

Results

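The 10 genes described here encode enzymes of lipolysis and of triglyceride re-synthesis, measured in the interscapular brown adipose tissue (iBAT) of cold-housed mice with and without the long non-coding RNA gene Gm15551. They were taken by symbol from the deposited table of 54347 gene records: Pnpla2, Lipe, Mgll and Abhd5 for lipolysis, and Pck1, Gpam, Agpat2, Lpin1, Dgat1 and Dgat2 for the route back to triglyceride. All 10 symbols were found, and all 10 genes passed the filter on low counts. The rule that names them uses no measured value.

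The study compared 5 ΔGm15551 mice (replicates 1, 2, 4, 5 and 7) with 5 wild type littermates (replicates 2, 3, 5, 6 and 7) on the C57BL/6N background, asking whether loss of Gm15551 changed the iBAT transcriptome. The ΔGm15551 allele is a CRISPR/Cas9 deletion that removes exon 1 of Gm15551, made in the germline and therefore carried by every tissue of the animal, and the line was backcrossed to wild type mice. Every mouse of both groups was 12 weeks old and was housed alone at 4 °C for 24 h before dissection, so no effect of cold can be read from these libraries. Sex is not given in the labels. Each library is poly A RNA of 1 mouse, with its own mouse number in the labels, and held between 9680976 and 15771170 estimated counts.

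Brown adipocytes burn fatty acids to make heat, and in the cold the fatty acids come in part from their own lipid droplets. Triglyceride is cleaved stepwise by adipose triglyceride lipase, hormone-sensitive lipase and monoglyceride lipase, each releasing 1 fatty acid. Part of the fatty acid is esterified again: glycerol 3-phosphate is acylated to lysophosphatidic and then phosphatidic acid, a lipin removes the phosphate, and a diacylglycerol acyltransferase adds the last chain. Brown fat is known for running both directions at once during cold exposure.

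The target of the deletion was read first. Gm15551 had 0 counts in all 5 ΔGm15551 libraries. In wild type replicates 2, 3, 5, 6 and 7 it had 1, 2, 6, 7 and 0 counts. The counts went with the genotype labels in 9 of 10 libraries. The library of wild type replicate 7 had no count, and at this depth up to 3 counts of its total remain possible. Wild type replicates 5, 6 and 7 carry mouse numbers from a higher series than the other 7 mice, and for those 3 mice number series and genotype cannot be told apart.

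Markers of skeletal muscle, which borders the depot, varied widely. The summed counts of 12 muscle genes made up 0.000144% to 0.210% of counts in ΔGm15551 mice and 0.000159% to 0.337% in wild type mice. The highest shares were in wild type replicate 7 (0.337%), ΔGm15551 replicate 4 (0.210%) and ΔGm15551 replicate 1 (0.0915%). The 12 brown adipocyte markers made up 1.20% of counts in wild type replicate 7, and in ΔGm15551 replicate 1 they made up 1.22%, against 1.39% to 1.63% in the other 8 mice. All 12 brown markers passed the filter on low counts. In bulk tissue, fewer cells of a type and less RNA per cell cannot be told apart.

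In none of the 10 genes did the difference between the genotypes pass the test. In edgeR's quasi-likelihood test with Benjamini-Hochberg adjustment over all 13733 genes, 0 of 10 passed an adjusted p of 0.05, where 0.0% of all genes did. None of the 10 reached an unadjusted p under 0.05, against 220 genes or 1.6% of all genes (0.961% higher and 0.641% lower in ΔGm15551 mice). In none of the 10 did the genotypes separate without overlap, against 0.32% of all genes. The log2 fold change (log2FC, ΔGm15551 minus wild type) was above 0 in 6 genes and below 0 in 4, where 49.7% of all genes were above 0. Its median was 0.07 over the 10 genes and -0.0010 over all genes tested; the former was 0.029 without ΔGm15551 replicate 2 and 0.14 without ΔGm15551 replicate 1.

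**Figure D1:**
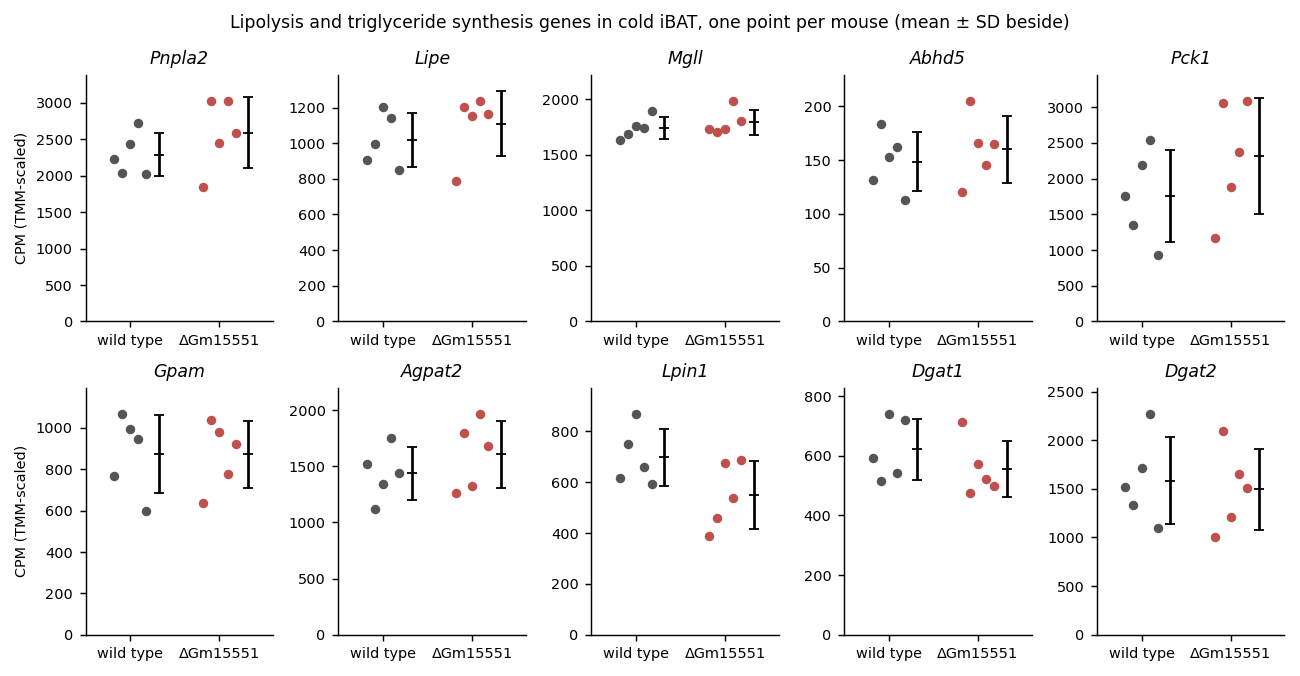
Normalised counts (CPM, counts relative to the TMM-scaled library size, linear axis from 0) of the 10 genes, 1 point per mouse, wild type in grey and ΔGm15551 in red, in replicate order from left to right; the bar beside each group is the mean ± SD of 5 mice. The genotypes overlap in all 10 panels, and the points of Pck1 are spread widest, from 925 to 3087 CPM.

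Pnpla2, on chromosome 7 (GRCm38 chr7:141455198-141460743, plus strand), encodes adipose triglyceride lipase, which starts lipolysis. In ΔGm15551 replicates 1, 2, 4, 5 and 7 it had 1847, 3024, 2447, 3024 and 2585 CPM. In wild type replicates 2, 3, 5, 6 and 7 it had 2235, 2037, 2435, 2716 and 2016 CPM. Both the lowest and the 2 highest values belonged to ΔGm15551 mice, so the wild type range lay inside the ΔGm15551 range. The means were 2585 ± 487 and 2288 ± 294 CPM (SD, n = 5 each), a log2FC of 0.18 (SE 0.15, 95% interval -0.16 to 0.51, adjusted p = 1.0 in edgeR). It was 0.11 without ΔGm15551 replicate 2 or replicate 5 and 0.28 without ΔGm15551 replicate 1.

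Abhd5 (chr9:122351608-122381524, plus strand) encodes the co-activator of adipose triglyceride lipase, also known as CGI-58. Its values were 120.3, 205, 165.8, 145.5 and 165 CPM in the ΔGm15551 mice and 132, 184, 153, 162 and 113 CPM in the wild type mice, in the same replicate order. The groups overlapped over most of their range. The log2FC was 0.11 (SE 0.16, 95% interval -0.24 to 0.45), and it was 0.0021 without ΔGm15551 replicate 2 and 0.20 without wild type replicate 3. Exons of Abhd5 overlap the antisense gene A730085K08Rik over 16.0% of their bases, but the counts of the antisense gene were at most 2.56% of those of Abhd5; whether strand was used in counting is not stated.

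Lipe (chr7:25379527-25398710, minus strand) encodes hormone-sensitive lipase, which mainly cleaves diacylglycerol. ΔGm15551 replicate 1 had 790 CPM, and the other 4 ΔGm15551 mice had 1206, 1153, 1237 and 1164 CPM. The wild type mice had 904, 996, 1205, 1141 and 850 CPM. The 4 ΔGm15551 mice were thus close together near the top of the wild type range, and the fifth lay below every wild type mouse. The means were 1110 ± 182 and 1019 ± 152 CPM (SD, n = 5 each), a log2FC of 0.12 (SE 0.15, 95% interval -0.20 to 0.45), which was 0.22 without ΔGm15551 replicate 1 and 0.064 without wild type replicate 7.

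Mgll (chr6:88724412-88828360, plus strand) encodes monoglyceride lipase, which releases the last fatty acid and glycerol. It had 1734, 1701, 1726, 1982 and 1800.3 CPM in ΔGm15551 mice. In wild type mice it had 1628, 1684, 1759, 1738 and 1892 CPM. This was the steadiest of the 10 genes: its highest mouse exceeded its lowest by 1.22 times, against a median of 1.59 times over the 8082 genes averaging 10 CPM or more. The log2FC was 0.04 (SE 0.11), with the narrowest interval of the 10 genes, from -0.19 to 0.27.

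Pck1 (chr2:173153048-173159273, plus strand) encodes cytosolic phosphoenolpyruvate carboxykinase, the key enzyme of glyceroneogenesis, which supplies glycerol 3-phosphate from pyruvate. The gene is a textbook target of cAMP signalling through an element in its proximal promoter. The 120 bases that end just before the annotated start on the plus strand (RefSeq sequence, GRCm38.p6, chr2:173152928-173153047) are shown because Pck1 varied most between mice. Capitals mark ACGTCA, the core letters of a cAMP response element, 91 bases before the RefSeq start. That RefSeq start lies downstream of the annotated start, so the 91 bases reach past the end of the printed sequence.

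Pck1: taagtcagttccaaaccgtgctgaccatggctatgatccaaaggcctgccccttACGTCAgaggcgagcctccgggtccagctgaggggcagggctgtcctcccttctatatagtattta

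Promoter windows from 250 bases before to 50 bases after the start were found for 8 of the 10 genes, with 11 windows in all. On either strand, ACGTCA was present in 2 of the 11 windows, 1 each of Pck1 and Gpam, and in 7.51% of the 32851 windows of all genes. The full palindrome TGACGTCA, which contains ACGTCA, was in none of the 11 windows and in 1.79% of all. CACGTG, an E-box, was in 2 of the 11, of Lipe and Mgll, and in 7.15% of all, and GGGCGG, a GC box, was in 8 of the 11 (7 genes) and in 35.7% of all. The direct repeat bound by PPAR and RXR, known as DR1, was in none of the 11 windows and in 0.0396% of all. TATAAA was in none of the 11 and in 13.6% of all, and CCAAT was in a window of Gpam and in 37.4% of all. These matches describe letters and were not tested for binding.

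In ΔGm15551 mice Pck1 had 1174, 3065, 1881, 2379 and 3087 CPM. In wild type mice it had 1754, 1355, 2197, 2546 and 925 CPM. The 2 highest mice were ΔGm15551 and the lowest was wild type, and the other 7 were interleaved. The means were 2317 ± 814 and 1755 ± 646 CPM (SD, n = 5 each), the largest positive log2FC of the 10 genes at 0.40 (SE 0.29, unadjusted p = 0.196, adjusted p = 1.0 in edgeR). It was 0.24 without wild type replicate 7, 0.27 without ΔGm15551 replicate 7 and 0.28 without ΔGm15551 replicate 2. Its 95% interval, -0.23 to 1.04, was the only one of the 10 to reach beyond a doubling, and a difference of that size therefore lies inside the interval. The biological coefficient of variation of Pck1 was 0.327, higher than in 90.0% of the genes tested, and its highest mouse exceeded its lowest by 3.34 times.

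Gpam (chr19:55067268-55127238, minus strand) encodes mitochondrial glycerol-3-phosphate acyltransferase, which adds the first chain. The ΔGm15551 mice had 639, 1040, 980.5, 779 and 923 CPM and the wild type mice 765, 1066, 993, 948 and 597 CPM. The means were nearly equal, at 872 ± 162 and 874 ± 191 CPM (SD, n = 5 each). The log2FC was -0.0029 (SE 0.18, 95% interval -0.39 to 0.38).

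Agpat2 (chr2:26593057-26604417, minus strand) encodes the acyltransferase of the next step, and loss of the human gene causes congenital lipodystrophy. It had 1266, 1795, 1321, 1963 and 1680.1 CPM in ΔGm15551 mice and 1516, 1121, 1343, 1756 and 1443 CPM in wild type mice. ΔGm15551 mice were both above and below the middle of the wild type range. The log2FC was 0.16 (SE 0.16, 95% interval -0.18 to 0.51), with 0.076 without ΔGm15551 replicate 5, 0.084 without wild type replicate 3 and 0.28 without wild type replicates 5, 6 and 7. Exons of Agpat2 overlap those of Egfl7, on the other strand, over 64 bases, and the counts of Egfl7 were at most 16.8% of those of Agpat2.

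Lpin1 (chr12:16535669-16610966, minus strand) encodes lipin 1, the phosphatidic acid phosphatase that also acts as a transcriptional co-regulator. The ΔGm15551 mice had 387, 459, 677, 539 and 686 CPM. The wild type mice had 615, 751, 867, 659 and 595 CPM. The 3 lowest mice were ΔGm15551 replicates 1, 2 and 5, below every wild type mouse, and replicates 4 and 7 lay inside the wild type range. The means were 550 ± 132 and 697 ± 112 CPM (SD, n = 5 each), a log2FC of -0.34 (SE 0.17, 95% interval -0.72 to 0.03). This was the smallest unadjusted p of the 10 genes at 0.0697, with an adjusted p of 1.0 in edgeR. With muscle marker level as a covariate the log2FC was again -0.34.

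Dgat1 (chr15:76502015-76511953, minus strand) and Dgat2 (chr7:99153658-99182719, minus strand) encode unrelated enzymes that both add the last chain. Dgat1 had 712, 476, 573, 523 and 499 CPM in ΔGm15551 mice and 592, 514, 739, 542 and 719 CPM in wild type mice. Replicates 2 and 7 of the ΔGm15551 group were below every wild type mouse, and replicate 1 was near the wild type maximum. The log2FC of Dgat1 was -0.16 (SE 0.15, 95% interval -0.48 to 0.16). It was -0.26 without ΔGm15551 replicate 1, -0.089 without wild type replicate 5 and 0.011 without wild type replicates 5, 6 and 7.

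Dgat2 had 1005, 2091, 1213, 1650.1 and 1509 CPM in ΔGm15551 mice and 1518, 1330.3, 1712, 2266 and 1096 CPM in wild type mice. The lowest and the highest mouse of each group lay far apart, and the ranges nearly coincided. The log2FC of Dgat2 was -0.09 (SE 0.22, 95% interval -0.56 to 0.39). Its direction was not stable: the log2FC was 0.029 without ΔGm15551 replicate 1, 0.077 without wild type replicate 6 and 0.069 without wild type replicates 5, 6 and 7.

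**Figure D2:**
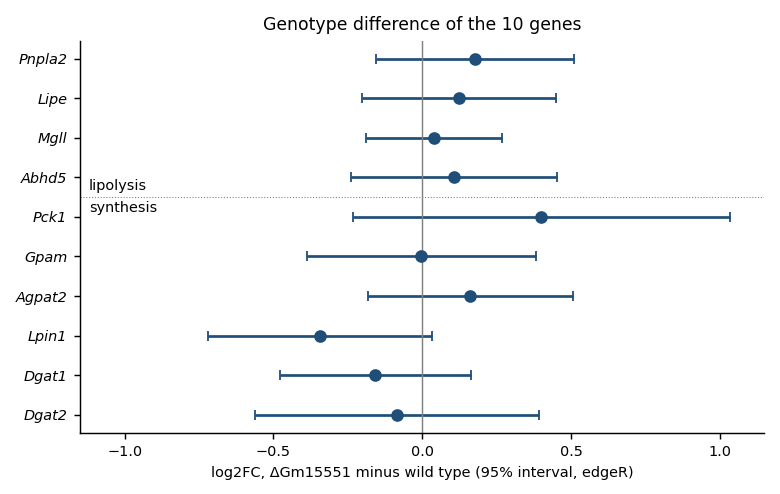
log2FC (ΔGm15551 minus wild type) of the 10 genes, with 95% intervals from edgeR's quasi-likelihood fit over 5 mice per genotype; the dotted line parts the 4 lipolysis genes from the 6 synthesis genes. Every interval includes 0, from the narrow one of Mgll (-0.19 to 0.27) to that of Pck1 (-0.23 to 1.04).

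All 4 lipolysis genes had a log2FC above 0, with a median of 0.12, and 4 of 6 synthesis genes had one below 0, with a median of -0.04. No gene of either group passed the test, and the pattern of signs was itself not tested. Some of these signs depended on the mice and the fit used. Over 18 alternatives the sign of Gpam turned in 10 and that of Dgat2 in 5. The signs of Mgll (-0.0025 without ΔGm15551 replicate 5) and Dgat1 turned in 1 each. Pnpla2, Lipe, Abhd5, Pck1, Agpat2 and Lpin1 kept their sign in all 18. The intervals of 9 genes lay inside a change of 1 on the log2 scale in either direction, and those of 5 genes inside 0.5.

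Levels were compared between genes per length, as counts per base of the union of annotated exons scaled to the same sum in every library, a TPM-like scale. Pnpla2 had the highest level, 1610 ± 352 (SD, n = 10 mice), rank 46 of all genes in the table. It was followed by Agpat2 at 1421 ± 306, Pck1 at 1189 ± 464, Dgat2 at 999 ± 306 and Mgll at 688 ± 56.3 on this per-length scale. Dgat1 stood at 380 ± 57.1, Lipe at 360 ± 71.5, Gpam at 261 ± 58.7 and Lpin1 at 128 ± 29.8. The lowest was Abhd5 at 51.7 ± 11.5, rank 1468. The mRNA of the co-activator was therefore far less abundant per length than that of the lipase it activates.

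Neighbours in this order differed to varying degrees. Mgll exceeded Dgat1, Lipe exceeded Gpam, Gpam exceeded Lpin1 and Lpin1 exceeded Abhd5 in 10 of 10 mice each. Pnpla2 was above Agpat2 in 9 mice, Pck1 above Dgat2 and Dgat2 above Mgll in 8 each, and Agpat2 above Pck1 in 7. Dgat1 was above Lipe in only 4 of 10, so these neighbours had no fixed order. With the longest transcript as length, Agpat2 came first at 1770 and Pnpla2 next at 1613, Lpin1 was at 193, and Abhd5, still the lowest, at 85.0 (rank 1054).

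Each synthesis step has several isoenzymes, and 1 of the 10 genes had the highest mean per-length level in each family, by a wide margin for Agpat2 and Lpin1. Among the glycerol-3-phosphate acyltransferases, Gpam made up 59.8% ± 3.50 of the family's per-length level in ΔGm15551 mice and 60.6% ± 3.90 in wild type mice (SD, n = 5 each). Gpat4, the microsomal enzyme, made up 31.5% to 42.4% over the 10 mice, and Gpat3 2.14% and 2.24%. Agpat2 made up 79.7% ± 3.33 and 77.5% ± 4.23 of its family, ahead of Agpat3 with 10.8% and 12.0%. Lpin1 made up 93.3% ± 2.15 and 95.1% ± 1.22 of the lipins.

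The diacylglycerol acyltransferases were the most variable family. Dgat2 made up 71.6% ± 8.87 of the pair's per-length level in ΔGm15551 mice and 70.8% ± 7.28 in wild type mice (SD, n = 5 each), and 58.3% to 81.3% over single mice. Pck1, the cytosolic enzyme, made up 99.7% of the phosphoenolpyruvate carboxykinases in both genotypes, the remainder being mitochondrial Pck2. These family shares were not tested between genotypes; the ratios tested are given next.

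**Figure D3:**
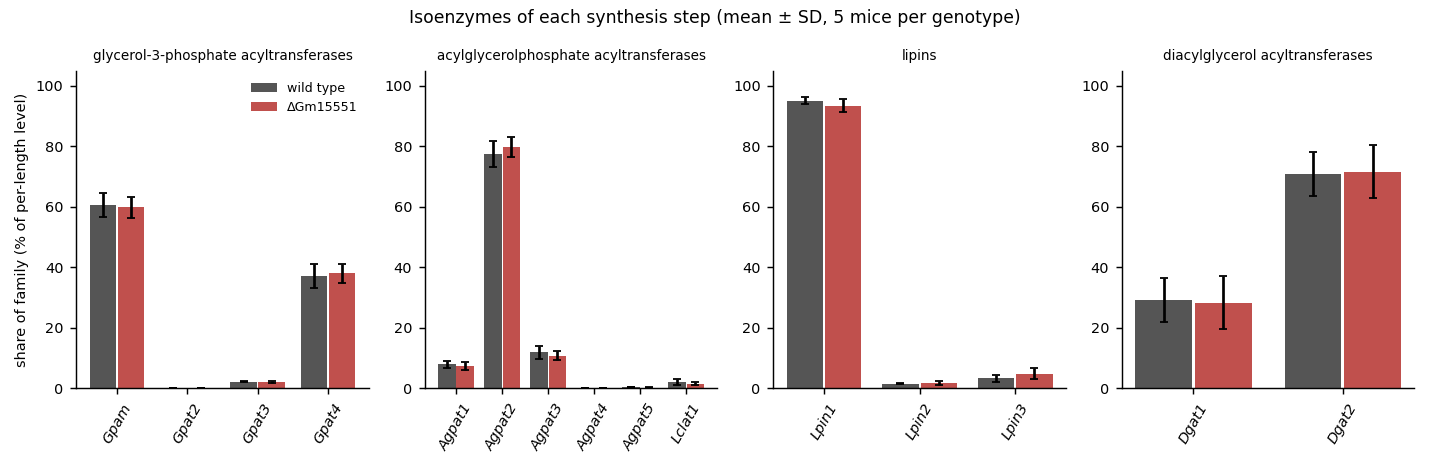
Share of each enzyme family's summed per-length level (percent, from 0) held by each isoenzyme, mean ± SD of 5 mice, wild type in grey and ΔGm15551 in red. Lpin1 and Agpat2 hold most of their families, Gpam shares its step with Gpat4, and the error bars are widest for Dgat1 and Dgat2.

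Ratios within a mouse do not depend on library scaling, and 5 of them were compared by an exact two-sided permutation test, whose smallest possible p with 5 mice against 5 lies below 0.05. The log2 ratio of Dgat2 to Dgat1 counts was 1.39 ± 0.62 in ΔGm15551 mice and 1.32 ± 0.52 in wild type mice (SD, n = 5 each, exact permutation p = 0.825). In single mice the ratio ran from 1.41 (ΔGm15551 replicate 1) and 1.52 (wild type replicate 7) to 4.18 (wild type replicate 6) and 4.39 (ΔGm15551 replicate 2). Both ends of the range were thus held by 1 mouse of each genotype.

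The ratio of Pnpla2 to Lipe varied least, from 2.02 to 2.51 over the 10 mice. Its log2 value was 1.22 ± 0.10 in ΔGm15551 mice and 1.17 ± 0.14 in wild type mice (SD, n = 5 each, exact permutation p = 0.563). That of Lipe to Mgll was -0.70 ± 0.25 and -0.78 ± 0.24 (exact permutation p = 0.595). That of Pnpla2 to G0s2, which encodes an inhibitor of adipose triglyceride lipase, was 3.51 ± 0.43 and 3.57 ± 0.34 (exact permutation p = 0.778).

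The largest difference of the 5 was in the ratio of Pck1 to Gk. Gk encodes glycerol kinase, another route to glycerol 3-phosphate. The log2 ratio was 1.68 ± 0.59 in ΔGm15551 mice and 1.22 ± 0.53 in wild type mice, a difference of 0.46 (SD, n = 5 each, exact permutation p = 0.270). It was 0.23 without wild type replicate 3, 0.24 without ΔGm15551 replicate 5 and 0.83 without wild type replicates 5, 6 and 7. After Benjamini-Hochberg adjustment over the 5 ratios, all 5 exact permutation p-values were 0.825. The signs of 3 of these differences depended on single mice: without wild type replicate 7 the difference for Dgat2 to Dgat1 was -0.11 and that for Lipe to Mgll -0.015, and without ΔGm15551 replicate 1 that for Pnpla2 to G0s2 was 0.083.

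The genes varied from mouse to mouse. The coefficient of variation over the 10 mice was above the median of 14.6% (over the same 8082 genes) in 9 of the 10 genes, all but Mgll. After Pck1, the highest mouse exceeded the lowest by 2.25 times for Dgat2 and 2.24 times for Lpin1, and by 1.55 to 1.81 times for the other 6 genes apart from Mgll. Together the 10 genes made up 0.982% to 1.53% of counts in ΔGm15551 mice and 1.03% to 1.41% in wild type mice.

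A pair of mice stood low. In ΔGm15551 replicate 1, 9 of the 10 genes were below their own mean log2 CPM over the 10 mice, with a median of -0.40, and only Dgat1 was above it, by 0.29. In wild type replicate 7, 8 of the 10 were below, with a median of -0.28, and Dgat1 and Mgll were above. These are the 2 mice with the lowest share of brown adipocyte markers, and both had raised muscle marker shares. They also had the highest shares of the 5 red blood cell markers (0.256% in wild type replicate 7 and 0.178% in the ΔGm15551 mouse, against 0.0646% to 0.149% in the other 8) and of the 4 endothelial markers (0.111% and 0.123%, against 0.0643% to 0.106%). ΔGm15551 replicate 4, with a muscle share of 0.210%, had 5 of the 10 genes below their mean and a median of 0.01. ΔGm15551 replicate 2 had the highest median, 0.27. The part of tissue content in these differences was not tested.

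**Figure D4:**
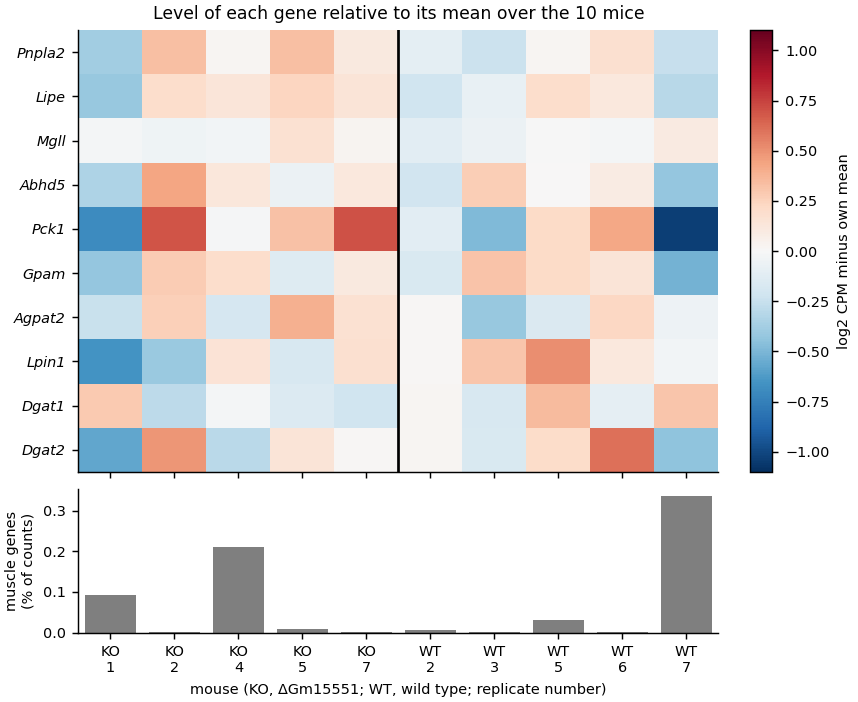
Above, log2 CPM of each gene minus its own mean over the 10 mice (red higher, blue lower), by mouse; below, the summed share of counts on 12 skeletal muscle genes in the same mice (percent, from 0). ΔGm15551 replicate 1 and wild type replicate 7 are blue in most genes except Dgat1, and the muscle share is highest in wild type replicate 7 at 0.337%.

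Several genes varied together over the 10 mice. Of the 45 pairs among the 10 genes, 31 had a Pearson's r above 0 and 14 below, with a median of 0.27. In 7 pairs the permutation p, adjusted by Benjamini-Hochberg over the 45 pairs, was under 0.05, and all 7 were positive. The lowest of the 7 had r = 0.811, a value met by 2.15% of all pairs of the 13733 genes. The points share libraries and scaling, so each mouse's tissue content and RNA quality enter every pair.

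The closest pair was Abhd5 and Gpam (r = 0.936, rho = 0.903, permutation p = 5.0e-05, adjusted p = 0.00225). Without the 2 mice farthest from the median of Abhd5, r was 0.845. Of all genes tested, 0.546% had an r with Abhd5 at least as high, and 2.37% had one with Gpam. For the other 6 pairs, 0.568% to 2.49% of all genes had an r at least as high with a gene of the pair. These 6 pairs centred on Pnpla2 and Pck1.

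Pnpla2 varied with Lipe (r = 0.887, rho = 0.867, permutation p = 0.00062, adjusted p = 0.0139) and with Pck1 (r = 0.883, rho = 0.891, permutation p = 0.00102, adjusted p = 0.0153). Without the 2 farthest mice, r was 0.833 and 0.832. Lipe and Pck1 had r = 0.857 (rho = 0.782, permutation p = 0.00234, adjusted p = 0.0263) and 0.688 without the 2 farthest mice. These 3 pairs did not pass in every reduced set: Pnpla2 with Lipe was lost without ΔGm15551 replicate 1, Pnpla2 with Pck1 without ΔGm15551 replicate 2, and Lipe with Pck1 without either of these mice or without wild type replicate 7.

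Pnpla2 also varied with Agpat2 (r = 0.829, rho = 0.818, permutation p = 0.00408, adjusted p = 0.0337) and with Dgat2 (r = 0.811, rho = 0.782, permutation p = 0.00525, adjusted p = 0.0337). Pck1 varied with Dgat2 (r = 0.811, rho = 0.733, permutation p = 0.00482, adjusted p = 0.0337). Without the 2 farthest mice these fell to 0.798, 0.657 and 0.635. None of these pairs passed without ΔGm15551 replicate 1, ΔGm15551 replicate 2 or wild type replicate 2. Pnpla2 with Agpat2 was also lost without ΔGm15551 replicate 5, ΔGm15551 replicate 7 or wild type replicate 6. Both pairs of Dgat2 were also lost without wild type replicate 7. Pnpla2 with Dgat2 was lost without ΔGm15551 replicate 7 too, and Pck1 with Dgat2 without ΔGm15551 replicate 5. By rho alone, 3 pairs had an adjusted permutation p under 0.05: Pnpla2 with Lipe (0.0330), Pnpla2 with Pck1 (0.0272) and Abhd5 with Gpam (0.0272).

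The r of Dgat1 was below 0 with 7 of the other 9 genes, lowest with Abhd5 (r = -0.767, rho = -0.745, permutation p = 0.0103, adjusted p = 0.0578), and above 0 with Mgll (0.10) and Lpin1 (0.02). None of the negative pairs passed the adjusted threshold over all 10 mice. After the muscle marker level was regressed out, r of Dgat1 was -0.48 with Abhd5 (permutation p = 0.159) and 0.063 with Dgat2. Mgll and Lpin1 were in none of the 7 pairs that did.

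The number of pairs depended on single mice. Over the 7 mice of the lower number series, of which 5 are ΔGm15551, r of the 7 pairs was 0.810 to 0.954; the higher series holds 3 wild type mice, too few for a value. With values taken as deviations from their group means, 8 pairs passed. After the muscle marker level was regressed out, 5 passed, and all 5 were among the 7; the pairs of Dgat2 no longer did, with r = 0.760 for Pnpla2 and 0.657 for Pck1. Leaving out 1 mouse gave 2 pairs without ΔGm15551 replicate 1, 2 without ΔGm15551 replicate 2, 4 without wild type replicate 2, 4 without wild type replicate 7, 11 without wild type replicate 5 and 15 without wild type replicate 3. Abhd5 with Gpam passed in each of the 10 reduced sets. Negative pairs, all with Dgat1, passed without wild type replicate 3 (3 pairs) and without wild type replicate 5 (4 pairs).

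**Figure D5:**
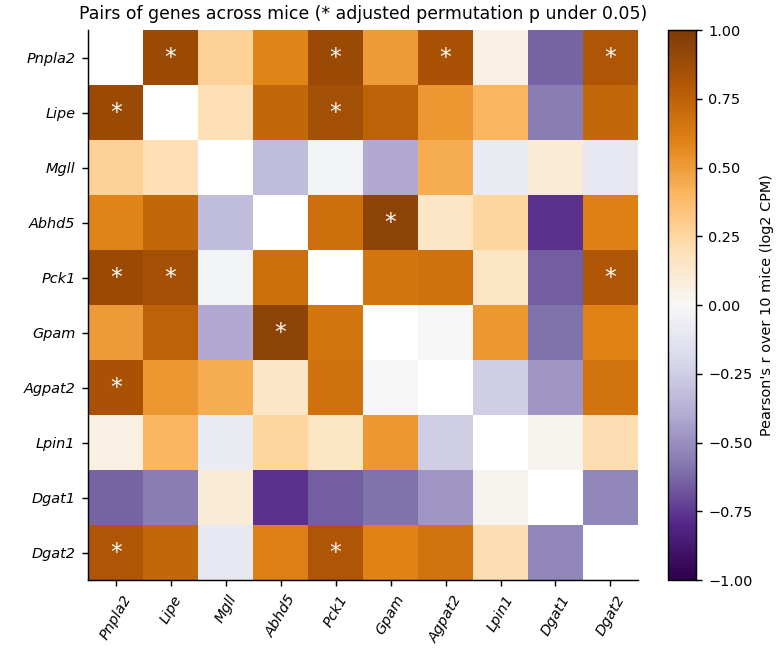
Pearson's r of log2 CPM over 10 mice for the 45 pairs of genes (orange positive, purple negative); stars mark the 7 pairs with a permutation p under 0.05 after Benjamini-Hochberg adjustment over the pairs. The row of Dgat1 is purple except with Mgll and Lpin1, and the darkest cell off the diagonal is Abhd5 with Gpam (0.936).

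Around the 10 genes, 41 further genes of the same pathways were listed, and 40 were tested. None passed an adjusted p of 0.05 in edgeR and none had an unadjusted p under 0.05; 21 had a log2FC above 0 and 19 below, with a median of 0.02. Gpat2, with 0 to 4 counts per mouse, fell under the filter.

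Among 15 regulators of lipolysis and other lipases, 9 had a log2FC above 0 and 6 below, and the median was 0.04. The highest was G0s2 with 231 ± 64.9 CPM in ΔGm15551 mice and 194 ± 39.7 CPM in wild type mice (SD, n = 5 each), a log2FC of 0.25 (SE 0.20). The lowest was Nceh1, a neutral cholesterol ester hydrolase, with 10.1 ± 6.29 and 13.7 ± 6.38 CPM and a log2FC of -0.43 (SE 0.42).

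Among 6 genes of glycerol 3-phosphate supply the median was 0.01. Gk had 730 ± 282 CPM in ΔGm15551 mice and 761 ± 285 CPM in wild type mice (SD, n = 5 each), a log2FC of -0.06 (SE 0.31). The highest was Pck2 at 0.19 (SE 0.17) and the lowest Gpd2, the mitochondrial glycerol-3-phosphate dehydrogenase, at -0.08 (SE 0.23).

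Among the 19 tested isoenzymes and partners of glycerolipid synthesis the median log2FC was -0.04. The highest was Mogat1, a monoacylglycerol acyltransferase, at 0.22 (SE 0.28), and the lowest Lclat1, a lysocardiolipin acyltransferase, at -0.26 (SE 0.21). Of the marker lists, 0 of 12 muscle, 0 of 5 red blood cell, 0 of 5 macrophage and 0 of 4 endothelial genes had an unadjusted p under 0.05, and 2 of 12 brown adipocyte genes did, both higher in ΔGm15551 mice, where 0.961% of all genes were higher at that threshold. These 2, named after their values were seen, were Adrb3, the β3-adrenergic receptor, with a log2FC of 0.50 (SE 0.13), and Zic1, a transcription factor, with 0.84 (SE 0.31). Neither passed after adjustment in edgeR, and the median of the 12 was 0.05.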

How the data were processed

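RNA of iBAT from 10 mice was measured by paired-end sequencing of poly A RNA. The values deposited by the authors are estimated counts (expected counts) per gene, made with cutadapt and salmon against GENCODE M22 on GRCm38 (or M22 joined with RNAcentral) and rounded to whole numbers; tool versions and strand use are not given in the sources used here. All 10 columns were matched to mice by name.

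The fit was made with edgeR 4.0.16 (R 4.3.3). Its filterByExpr (minimum count 10, minimum total 15) left 13732 genes, and Gm15551 was added. TMM scaling and a robust quasi-likelihood fit with genotype as its only term followed. The fit was checked on simulated data with the same dispersion in every gene, which does not measure its power in these data. Benjamini-Hochberg adjustment covered 13733 genes, with a threshold of 0.05. log2 CPM had a prior count of 2 and ratios of counts 0.5. Correlations used Pearson's r of log2 CPM and 100000 permutations (scipy 1.17.1). Positions and lengths came from GENCODE M21 (GRCm38; 99.5% of gene IDs matched) and promoter sequences from RefSeq (GRCm38.p6).

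The genes named are the 10 members, Gm15551, the partners in the ratios, and the highest and lowest log2FC of each pathway list. Also named are isoenzymes of the members and genes that overlap them. Brown adipocyte markers were named for an unadjusted p under 0.05 in the reported fit, and further pathway genes for one in an alternative. The members and lists were chosen with earlier results of these data known. Alternatives were DESeq2 1.42.0 (size factors, Wald test), limma-voom (limma 3.58.1), no filter, each mouse left out, a replicate block, a muscle covariate, exclusion of wild type replicates 5, 6 and 7, a prior count of 5 for the ratios and the longest transcript as length. Intervals and floors cover the spread between these mice and counting error only. No 2 libraries of the same genotype agreed within sampling noise.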

Additional observations from a re-analysis of the deposited data

Results flagged for a closer look

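Among 32 sets of 5 mice (the 10 genes, the 5 ratios and the summed share of counts on the 10 genes, in each genotype), Dixon's ratio of the gap to the range was above its critical value of 0.71 in 3, where chance gives about 1 in 20, or 1.6 sets. Lipe was lowest in ΔGm15551 replicate 1 at 790 CPM, with the other 4 ΔGm15551 mice between 1153 and 1237 CPM. The log2 ratio of Lipe to Mgll was lowest in the same mouse at -1.13, with the others between -0.68 and -0.50. The log2 ratio of Pck1 to Gk was lowest in wild type replicate 3 at 0.27, with the other wild type mice between 1.36 and 1.52.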

How the results depend on the processing

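No gene passed an adjusted p of 0.05 under any setting, and the smallest adjusted p of the 10 genes over all settings was 0.835 (Lpin1, no filter, edgeR). The number of the 10 genes with an unadjusted p under 0.05 was 0 in the reported fit, 1 with the DESeq2 Wald test (Lpin1; 1.67% of all genes) and 0 to 1 with single mice left out (Lpin1 without ΔGm15551 replicate 4, ΔGm15551 replicate 7 or wild type replicate 7, where 1.95%, 1.85% and 2.91% of all genes did). That of pathway genes was 0 to 1 with single mice left out (Agpat5 without ΔGm15551 replicate 2 or wild type replicate 7, Nceh1 without ΔGm15551 replicate 4, Acsl5 without ΔGm15551 replicate 7 and Ces1f without wild type replicate 6; 1.61% to 2.91% of all genes in these sets). Replicate numbers 2, 5 and 7 occur in both genotypes. Deviations of same-numbered mice from their group means had r = -0.07, 0.05 and -0.39. Those of differently numbered mice had r from -0.51 to 0.17. With so few pairs, these values cannot show whether the numbers pair the mice. With the replicate block in those 6 mice, 1 of the 10 genes (Pck1) and 1 pathway gene (Nceh1) had an unadjusted p under 0.05 (2.88% of all genes), the median log2FC of the 10 genes was 0.30, and the log2FC of Gpam was 0.24 and of Dgat2 0.29. Without the block in the same 6 mice, a setting chosen after seeing the data, 2 genes (Pck1 and Dgat1) and 3 pathway genes (Nceh1, Ces1f and Ces1d) had one, with 4.02% of all genes, and the median and the log2FC of Gpam and Dgat2 were 0.28, 0.22 and 0.28.

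The log2FC of Gpam was 0.0099 with limma-voom, 0.013 with the muscle covariate, 0.0022 without a filter and -0.11 to 0.091 with single mice left out. With single mice left out, Mgll was -0.0025 to 0.071, Dgat2 -0.24 to 0.077, Dgat1 -0.26 to -0.089, the median of the 10 genes 0.029 to 0.14, and the log2 ratio differences were -0.11 to 0.29 (Dgat2 to Dgat1), -0.015 to 0.19 (Lipe to Mgll), -0.19 to 0.083 (Pnpla2 to G0s2) and 0.23 to 0.62 (Pck1 to Gk). Without wild type replicates 5, 6 and 7, Pnpla2 was 0.28, Lipe 0.22, Mgll 0.11, Abhd5 0.023, Pck1 0.58 and Gpam -0.069. In the same set, Agpat2 was 0.28, Lpin1 -0.31, Dgat1 0.011 and Dgat2 0.069. The log2 ratio differences there were 0.21 for Pnpla2 to G0s2 and 0.83 for Pck1 to Gk. Pnpla2, Lipe, Abhd5, Pck1, Agpat2 and Lpin1 kept their sign in all 18 alternatives, but their sizes moved with single mice left out, from 0.11 to 0.28, 0.064 to 0.22, 0.0021 to 0.20, 0.24 to 0.57, 0.076 to 0.24 and -0.44 to -0.24. With the replicate block in the 6 mice, Pnpla2 was 0.37, Lipe 0.30, Abhd5 0.37, Pck1 0.88, Agpat2 0.34 and Dgat1 -0.45; Pck1 was 0.81 there without the block. Correlated pairs numbered 2 to 15 with single mice left out. Over all alternatives, 302 values kept their direction and side of the threshold or stayed within the spread, 27 moved and 24 turned sign. Genes with few counts, such as Gm15551, are limited by depth.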
